A study of Mus musculus with 6 samples.

Results

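The integrated stress response genes described here are 10 genes that encode the transcription factor ATF4, factors that act with it and a set of its best-known targets: Atf4, Atf5, Atf3, Ddit3, Trib3, Chac1, Asns, Sesn2, Ddit4 and Fgf21. They were found by gene symbol in the deposited count table, which holds 52459 rows, and all 10 were present. After a filter on low counts 9 of the 10 were tested among 14130 genes, and Fgf21 is given by its reads. The RNA came from mouse liver tumours of genotype MYC-LAP-tTA, in which a tetracycline-controlled transactivator driven by a liver promoter keeps a MYC transgene switched on. In 3 MYC-On samples the transgene was active, and in 3 MYC-Off samples it had been inactivated for 4 days. All 6 samples carry the same transgenes, and no untransformed liver was compared. The labels give no age and do not tell whether 1 animal or several stand behind a group. The p-values therefore speak of how these samples vary, a variation that may be technical.

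The integrated stress response is the pathway by which kinases that sense amino acid shortage, unfolded protein in the endoplasmic reticulum, haem shortage or viral RNA phosphorylate the initiation factor eIF2. This lowers protein synthesis in general, while the Atf4 messenger, which carries upstream open reading frames, is translated better. ATF4 protein then switches on genes of amino acid synthesis and uptake and, with its target CHOP (the product of Ddit3), genes linked to growth arrest and cell death. In liver the pathway also induces the secreted hormone FGF21. Because ATF4 is controlled largely at translation, the messenger level of Atf4 is no measure of ATF4 protein, which was not measured here.

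Each library held 16292718 to 19265623 assigned reads. Values are in CPM (reads scaled to a common library total, TMM-adjusted to allow for differences in library composition), and 1 read was worth 0.0409 to 0.0768 CPM. Myc, the switched gene, stood at 779, 1018 and 854 CPM in MYC-On replicates 1, 2 and 3 and at 74.8, 10.2 and 18.7 CPM in MYC-Off, so MYC-Off replicate 1 held the most of that group. Summed CPM of 5 hepatocyte markers, all 5 called higher in MYC-Off, was 2345 to 5424 in MYC-On and 77750, 136600 and 236900 in MYC-Off replicates 1, 2 and 3. Most of the sum was Alb (59070, 105500 and 203600 CPM in MYC-Off), and the markers did not all run alike: Serpina1c was highest in MYC-Off replicate 2, and Cyp2e1 had 982, 5718 and 2.15 CPM, in replicate 3 below every MYC-On library. None of the 37 markers of 8 cell types was at 0 in all libraries. Macrophage markers (6 of 6 called higher) summed to 415 to 806 CPM in MYC-On and 5611, 2085 and 1591 CPM in MYC-Off replicates 1, 2 and 3, and those of stellate cells and fibroblasts (5 of 5) to 105 to 123 and 1895, 1044 and 743 CPM. Replicate 1 was also the highest for T cell (143 CPM, 4 of 4 tested), B cell (41.6 CPM, 1 of 1 tested) and endothelial markers (510 CPM, 3 of 4), whose MYC-On sums were at most 9.17, 0.891 and 55.6 CPM. Neutrophil markers (4 of 4) summed to 2.09 to 3.06 CPM in MYC-On and 120, 94.4 and 146 CPM in MYC-Off, highest in replicate 3. Of 4 cholangiocyte markers 1 was called higher and 1 lower. Their sums were 37.4 to 88.5 CPM in MYC-On and 62.8, 23.9 and 50.1 CPM in MYC-Off. Cd14 (macrophage) and Col1a1 (fibroblast) were highest in replicate 3, unlike the other markers of their types. In such bulk tissue, fewer cells of a type and less RNA per cell cannot be told apart. The scaling matters: with library size only, the median over all genes moved by -0.74 (log2 fold change).

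The promoters of 5 members held a match to the core of a sequence that ATF4 can bind. It is shown first because the calls of the genes that carry it differed. The RefSeq promoters (GRCm38.p6, the assembly of mm10, from 250 bases before to 50 bases after the start) covered all 10 genes with 11 windows, Atf5 having 2. The core TGATGNAA of the C/EBP-ATF response element, searched on both strands, occurred in 5 of the 11 windows and in 3.97% of all 32851 promoters. The 5 sites of 30 bases are written on the strand on which the core reads TGATGNAA, with the core in capitals (plus strand for Trib3, Atf3 and Fgf21, minus strand for Asns and Chac1).
Asns: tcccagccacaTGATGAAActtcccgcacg
Chac1: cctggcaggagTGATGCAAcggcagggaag
Trib3: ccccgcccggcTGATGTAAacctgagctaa
Atf3: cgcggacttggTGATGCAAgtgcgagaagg
Fgf21: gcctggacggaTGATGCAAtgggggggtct
They lie at chr6:7693214-7693243 for Asns, chr2:119351038-119351067 for Chac1, chr2:152344028-152344057 for Trib3, chr1:191183425-191183454 for Atf3 and chr7:45615611-45615640 for Fgf21. Counted on the gene's strand, the core began 23 bases before the RefSeq start of Asns, 193 before that of Chac1, 110 before that of Atf3 and 139 before that of Fgf21, and at base 15 after that of Trib3. The gene coordinates given below are from GENCODE and differ in part. By them the Asns site lies in an exon, the Atf3 site lies inside the gene and the Trib3 site spans the start. Atf3, Chac1 and Fgf21 shared the letters TGATGCAA. Of these 5 genes, Asns fell and Chac1 and Trib3 rose in MYC-Off, while Atf3 did not pass the test and Fgf21 was not tested. The full cAMP response element TGACGTCA was in 0 of the 11 windows and in 1.79% of all promoters. The E-box CACGTG, which MYC with its partner MAX can bind, was in 1 of 11 windows (that of Fgf21) and in 7.15% of all promoters. CCAAT was in 7 of 11 windows and in 37.4% of all promoters. A match is a description of the letters only, and a window with no match says nothing about the factor. The stretch of promoter before the annotated exon is given on the gene's strand for Chac1 (chr2:119350992-119351228, plus strand) and for Fgf21 (chr7:45615491-45615740, minus strand), with the core (here TTGCATCA, its reverse complement) in capitals.
Chac1: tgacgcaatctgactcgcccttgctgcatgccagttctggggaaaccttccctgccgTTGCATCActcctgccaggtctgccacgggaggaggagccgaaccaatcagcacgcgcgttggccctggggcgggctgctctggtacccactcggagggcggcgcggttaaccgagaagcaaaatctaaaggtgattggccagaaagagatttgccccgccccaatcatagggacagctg
Fgf21: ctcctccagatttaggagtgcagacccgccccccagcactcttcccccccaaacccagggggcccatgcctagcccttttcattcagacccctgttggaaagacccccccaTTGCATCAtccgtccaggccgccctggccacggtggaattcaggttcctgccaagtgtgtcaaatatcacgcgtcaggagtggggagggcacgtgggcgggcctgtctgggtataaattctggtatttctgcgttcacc

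Among the tested genes 4 rose in MYC-Off (Ddit3, Atf5, Chac1 and Trib3) and 1 fell (Asns), while Atf4, Atf3, Ddit4 and Sesn2 did not pass. In edgeR's quasi-likelihood test 52.7% of all tested genes passed the threshold (adjusted p of 0.05), 29.9% as higher and 22.8% as lower, so 5 calls among 9 is close to the background and is no result about the set. The median log2 fold change of the 9 genes was 1.17, against 0.18 over all tested genes, and it was 0.30 without MYC-Off replicate 1. Without MYC-On replicate 2 or MYC-Off replicate 3, 2 genes rose, and without MYC-Off replicate 1, 2 fell.

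**Figure D1:**
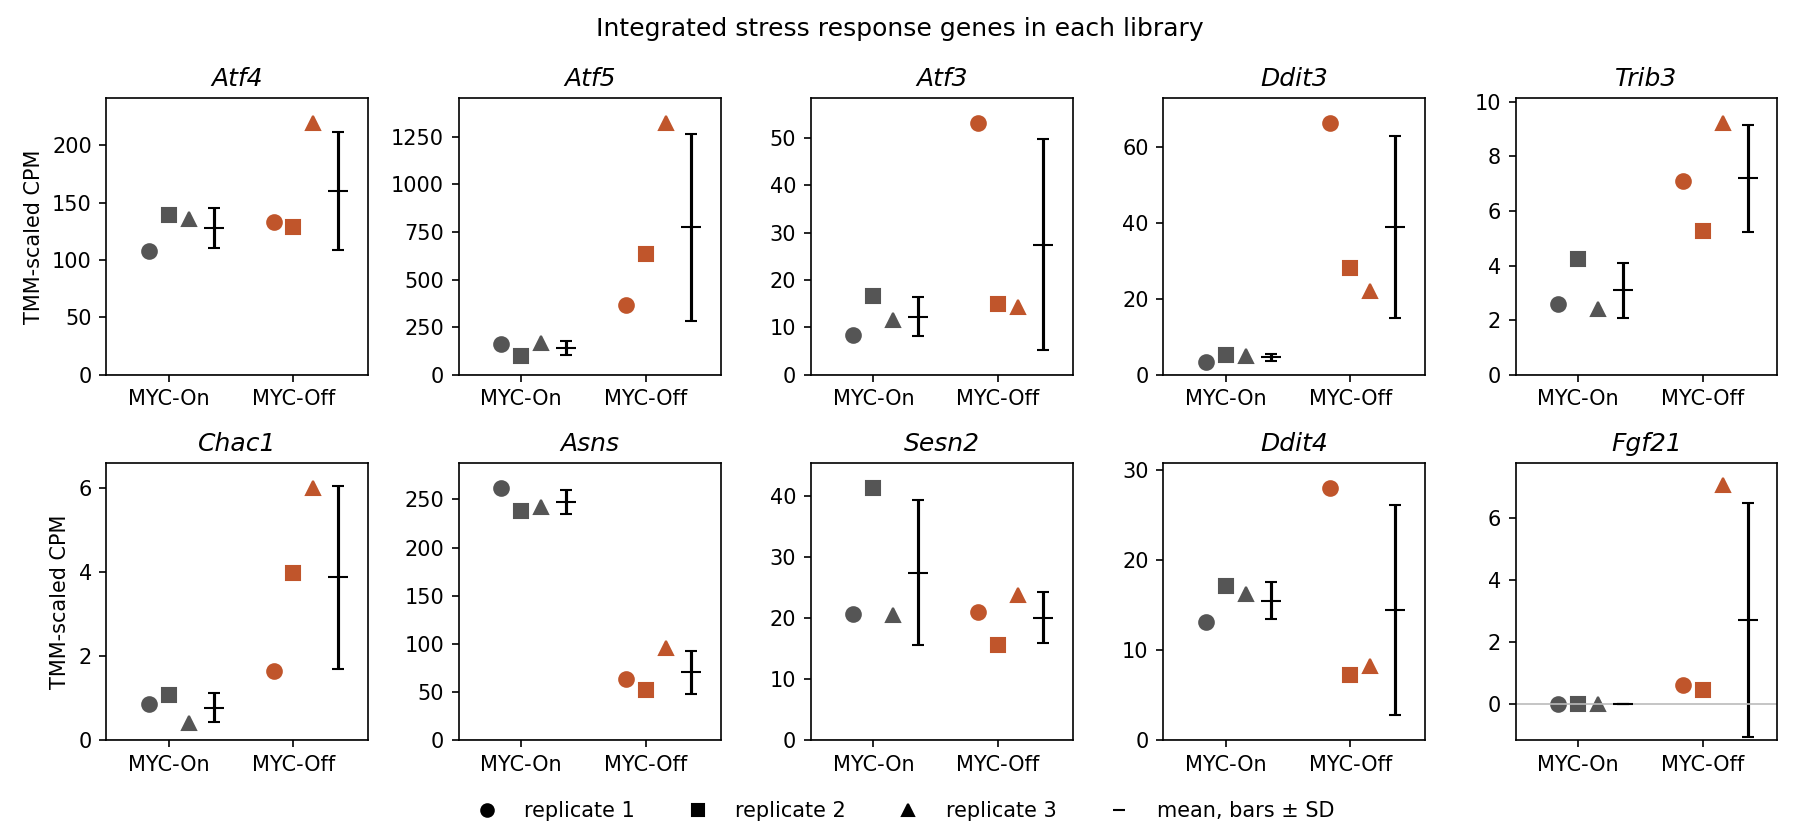
TMM-scaled CPM (vertical axis) of each of the 10 genes in the 3 MYC-On and 3 MYC-Off libraries, with symbols for replicate numbers and the mean ± SD of 3 libraries beside them (for Fgf21 the bar runs below 0). Ddit3, Atf5, Trib3 and Chac1 lie higher and Asns lower in every MYC-Off library, while Atf3 and Ddit4 are high in MYC-Off replicate 1 and Fgf21 in replicate 3.

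Atf4 (chromosome 15, 80255184 to 80257541, plus strand, mm10, protein coding) encodes the central factor of the response. It had 108, 139 and 136 CPM in MYC-On and 133, 129 and 219 CPM in MYC-Off. The groups overlapped, and only MYC-Off replicate 3 stood above every MYC-On library. The log2 fold change (MYC-Off minus MYC-On, here and below) was 0.33 (SE 0.29, edgeR adjusted p = 0.366), with a 95% interval of -0.34 to 1.00. With library size only it was -0.44, and without MYC-Off replicate 3 it was -0.05, neither of them called.

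Atf5 (chromosome 7, 44812256 to 44816658, minus strand), a close relative of ATF4 that is abundant in liver and also translated through upstream reading frames, rose. It had 160, 96.3 and 165 CPM in MYC-On and 368, 632 and 1322 CPM in MYC-Off. Each MYC-Off library was above each MYC-On library, and replicate 3 was the highest by far. The mean rose from 140 ± 38.1 to 774 ± 493 CPM (SD, n = 3). On the log2 scale the change was 2.46 (SE 0.53, edgeR adjusted p = 0.00804). The call held in all 16 alternatives, with a log2 fold change of 1.72 without MYC-Off replicate 3 and 1.64 with library size only. Summed hepatocyte markers were also highest in that replicate, and their part in the rise was not tested. Not every marker followed the sum. Of its 1993 exonic bases, 82 overlap exons of Il4i1 and Nup62 on the other strand, and with no strand setting known those reads cannot be told apart.

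Atf3 (chromosome 1, 191170296 to 191218039, minus strand), a stress-induced repressor that is also an immediate early gene, was high in a single library. It had 8.37, 16.5 and 11.6 CPM in MYC-On and 53.1, 14.9 and 14.3 CPM in MYC-Off. Replicate 1 of MYC-Off stood 4.36 times above the MYC-On mean, and the other two lay within the MYC-On range. The log2 fold change was 1.17 (SE 0.57, edgeR adjusted p = 0.119, 95% interval -0.16 to 2.50), and it was 0.12 (adjusted p = 0.782) without MYC-Off replicate 1.

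Ddit3 (chromosome 10, 127290774 to 127296288, plus strand) encodes CHOP, the ATF4 target that carries the response towards cell death when stress persists. It showed the largest increase of the tested members. Its level was 3.39, 5.16 and 5.03 CPM in MYC-On and 66.2, 28.0 and 22.1 CPM in MYC-Off. No MYC-Off library came near the MYC-On range, the lowest being 4.87 times the MYC-On mean. The mean rose from 4.52 ± 0.989 to 38.8 ± 24.0 CPM (SD, n = 3). On the log2 scale the change was 3.10 (SE 0.48, edgeR adjusted p = 0.00244). The call held in all 16 alternatives, with 2.32 without MYC-Off replicate 1, the highest library, and 2.50 with library size only. Exons of Ddit3 overlap 68 bases of Mars and 13 of Gm4189 on the other strand, so its value is uncertain to that extent. Mars had 72.0, 97.5 and 82.7 CPM in MYC-On and 36.5, 65.7 and 49.0 CPM in MYC-Off, with no call (-0.74, edgeR adjusted p = 0.0521).

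Trib3 and Chac1 are targets shared by ATF4 and CHOP. Trib3 (chromosome 2, 152337422 to 152344032, minus strand) encodes a pseudokinase that binds AKT and dampens ATF4 activity. It had 2.58, 4.26 and 2.42 CPM in MYC-On and 7.09, 5.28 and 9.22 CPM in MYC-Off. The groups did not overlap, but the highest MYC-On and the lowest MYC-Off library lay close together. The log2 fold change was 1.22 (SE 0.42, edgeR adjusted p = 0.0438). Its call was lost in 11 of 16 alternatives, among them library size only (0.48, adjusted p = 0.441) and DESeq2 size factors (1.14, adjusted p = 0.0577). The adjusted p was 0.17, 0.0588 and 0.162 without MYC-On replicates 1, 2 and 3, and 0.0706 and 0.128 without MYC-Off replicates 1 and 3.

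Chac1 (chromosome 2, 119351229 to 119354381, plus strand) encodes an enzyme that breaks down glutathione. It was scarce, with 19, 26 and 8 reads in MYC-On and 30, 52 and 78 reads in MYC-Off. In CPM these were 0.846, 1.06 and 0.394 against 1.65, 3.98 and 5.99, so the groups did not overlap. The log2 fold change was 2.31 (SE 0.65, edgeR adjusted p = 0.0203). The call was lost in 8 of 16 alternatives, among them library size only (1.46, adjusted p = 0.0777). It was also lost without MYC-On replicates 1, 2 and 3 (adjusted p = 0.0769, 0.0577 and 0.0866) and without MYC-Off replicate 3 (1.74, adjusted p = 0.0526).

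Asns (chromosome 6, 7675169 to 7693254, minus strand) encodes asparagine synthetase, the classical ATF4 target that responds to amino acid shortage. Unlike the targets above, it fell. Its level was 262, 238 and 242 CPM in MYC-On and 63.4, 52.4 and 95.2 CPM in MYC-Off. The MYC-On libraries lay close together (coefficient of variation 5.10%), and the highest MYC-Off library stood at 0.385 of that mean. Mean Asns was 247 ± 12.6 CPM in MYC-On and 70.3 ± 22.2 CPM in MYC-Off (SD, n = 3). This is a log2 fold change of -1.81 (SE 0.29, edgeR adjusted p = 0.00264). The call held in all 16 alternatives, with values from -2.56 (library size only) to -1.73.

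Ddit4 and Sesn2 encode stress-induced inhibitors of the growth kinase mTORC1. Ddit4 (chromosome 10, 59949669 to 59951834, minus strand), which is also induced by hypoxia and glucocorticoids, had 13.1, 17.1 and 16.2 CPM in MYC-On and 27.9, 7.19 and 8.22 CPM in MYC-Off. Its MYC-Off libraries lay on both sides of the MYC-On range, replicate 1 above it and the other two below it. The log2 fold change was -0.09 (SE 0.53, edgeR adjusted p = 0.896, 95% interval -1.34 to 1.16). Without MYC-Off replicate 1, Ddit4 was called lower (-1.15, adjusted p = 0.012). Sesn2 (chromosome 4, 132492032 to 132510501, minus strand), the leucine sensor Sestrin 2, had 20.6, 41.3 and 20.5 CPM in MYC-On and 20.9, 15.5 and 23.7 CPM in MYC-Off. Here the overlap was wide, with MYC-On replicate 2 apart from the other libraries. For Sesn2 the log2 fold change was -0.45 (SE 0.35, edgeR adjusted p = 0.304, 95% interval -1.27 to 0.36), and it was called lower with library size only (-1.19, adjusted p = 0.0407).

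Fgf21 (chromosome 7, 45613886 to 45615490, minus strand), the hepatic stress and fasting hormone, had 0 reads in each MYC-On library. In MYC-Off it had 11, 6 and 92 reads, or 0.604, 0.459 and 7.07 CPM. All 3 MYC-Off libraries held reads, most of them in replicate 3. Taken over the groups and against a floor of 3 reads for all of MYC-On, which allows up to 0.0447 CPM there, Fgf21 was at least 55.1-fold higher in MYC-Off, and at least 12.2-fold higher without MYC-Off replicate 3. Its edgeR adjusted p was 0.0124 with no low-count filter. It also entered the test without MYC-On replicate 1 (0.0452), 2 (0.0566, not called) or 3 (0.0499) and without MYC-Off replicate 2 (0.0183). With 0 reads in MYC-On, Fgf21 could enter these tests only through its MYC-Off reads. The adjusted p-values are therefore no support for a rise. The fold limits cover counting error in MYC-On only, not that in MYC-Off or the variation between samples. Hepatocyte marker sums were also highest in replicate 3, and their part in the reads of Fgf21 was not tested.

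**Figure D2:**
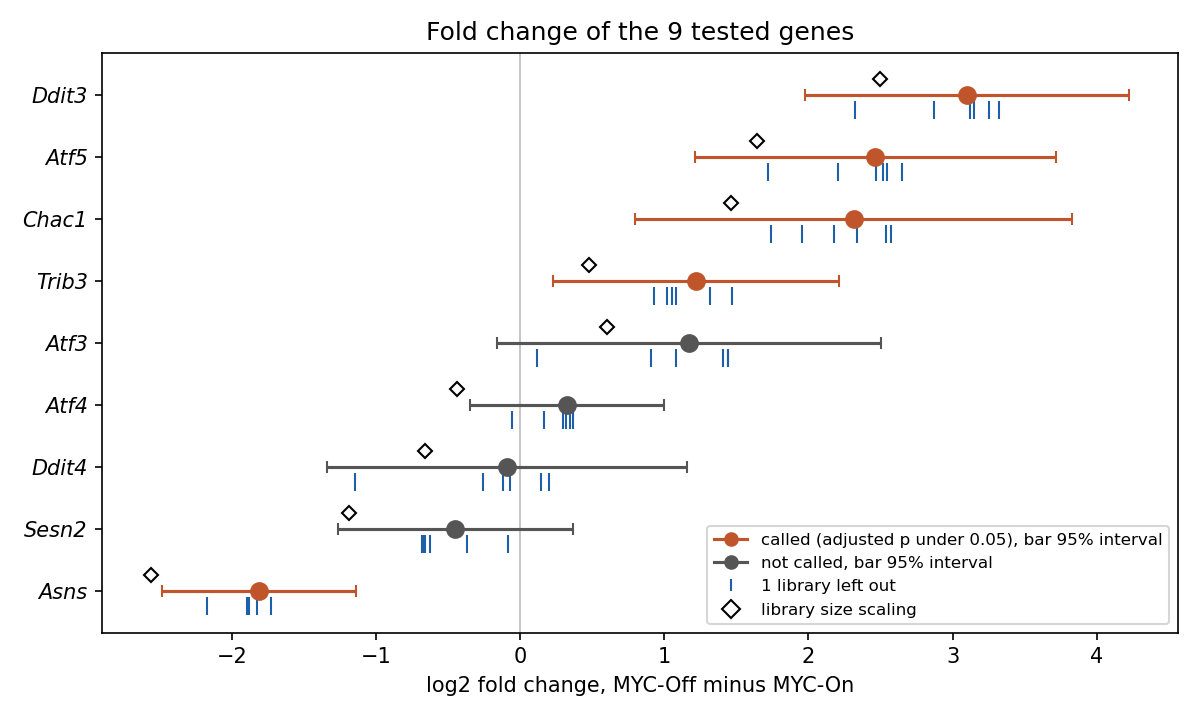
Log2 fold change of the 9 tested genes (horizontal axis), with 95% intervals, values with 1 library left out (ticks) and values with library size scaling (diamonds). Atf4 and Ddit4 have values on both sides of 0, and the other 7 genes keep their side in the variants drawn.

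Set against each other per kilobase of annotated exon, the members spanned a wide range of levels and changed order. In MYC-On the order was Asns (90.4 ± 4.61 CPM per kilobase), Atf5 (70.4 ± 19.1), Atf4 (54.2 ± 7.31), Ddit4 (8.80 ± 1.19), Sesn2 (7.90 ± 3.44), Atf3 (5.66 ± 1.91), Ddit3 (2.64 ± 0.577), Trib3 (1.45 ± 0.479), Chac1 (0.469 ± 0.209) and Fgf21 at 0 (SD, n = 3). Library ranges overlapped between Atf5 and Atf4, between Ddit4 and Sesn2, between Sesn2 and Atf3 and between Ddit3 and Trib3, so those neighbours are not separated. In MYC-Off the first place went to Atf5 (388 ± 247 CPM per kilobase), followed by Atf4 (67.9 ± 21.8), Asns (25.7 ± 8.13) and Ddit3 (22.6 ± 14.0). Asns thus moved from rank 1 to rank 3 and Ddit3 from rank 7 to rank 4, and their MYC-Off ranges overlapped. The remaining members lay at 12.7 ± 10.3 (Atf3), 8.23 ± 6.65 (Ddit4), 5.77 ± 1.20 (Sesn2), 3.39 ± 0.927 (Trib3), 2.85 ± 3.97 (Fgf21) and 2.37 ± 1.33 (Chac1) CPM per kilobase. Ranges of neighbours in this order overlapped from Asns to Sesn2 and from Trib3 to Chac1.

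The divergence between CHOP and asparagine synthetase does not depend on the scaling, since a ratio of reads within a library cancels it. Reads of Ddit3 were 0.0129, 0.0217 and 0.0208 of those of Asns in MYC-On and 1.04, 0.535 and 0.232 in MYC-Off. The lowest MYC-Off ratio was above the highest MYC-On ratio, and in MYC-Off replicate 1 the reads of Ddit3 outnumbered those of Asns. Against Atf4 itself, Ddit3 went from 0.0313, 0.037 and 0.037 to 0.499, 0.218 and 0.101, and Atf5 from 1.48, 0.691 and 1.21 to 2.77, 4.92 and 6.03. Trib3 per Atf4 read went from 0.0239, 0.0305 and 0.0178 to 0.0534, 0.0411 and 0.042, while Asns per Atf4 read went from 2.42, 1.71 and 1.78 to 0.478, 0.407 and 0.434. For each of these ratios the groups did not overlap. The ratios were chosen after the values were seen and were not tested, and no such share was computed for ratios of other gene pairs. In the CPM of single genes, 63.1% of all tested genes have groups that do not overlap (33.2% with MYC-Off above, 29.8% with MYC-Off below). Of the 9 tested members the groups did not overlap for 5, with 4 above and 1 below.

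**Figure D3:**
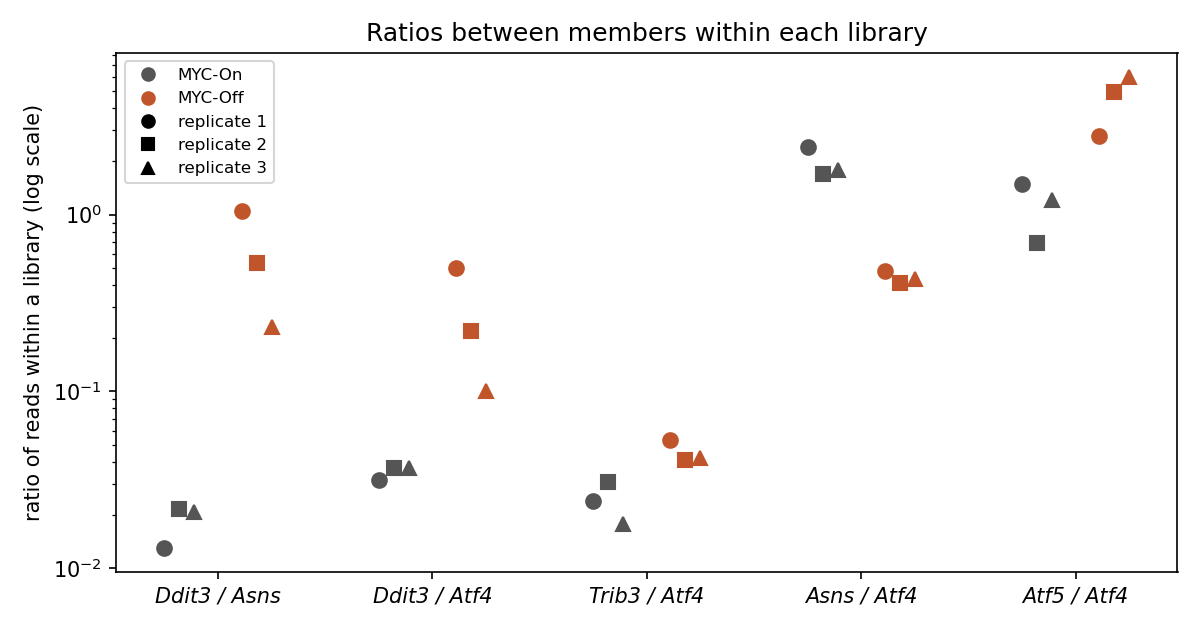
Ratio of reads of 2 members within each library, on a log scale, for MYC-On and MYC-Off libraries with symbols for replicate numbers. Ddit3 per Asns read is 0.0129 to 0.0217 in MYC-On and 0.232 to 1.04 in MYC-Off, and Asns per Atf4 read is lower in every MYC-Off library.

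The 3 MYC-Off libraries did not hold the same profile of stress genes. Of the 10 members, 3 were highest in MYC-Off replicate 1 (Ddit3, Atf3 and Ddit4) and 7 in replicate 3. The share of all genes highest in each library was not computed, so these counts are no result about the members. Within MYC-Off the coefficient of variation was 139% for Fgf21, 81.0% for Atf3, 80.9% for Ddit4, 63.7% for Atf5, 61.8% for Ddit3 and 56.1% for Chac1. The median over all tested genes was 19.1% in MYC-On and 34.7% in MYC-Off. Asns (31.6%), Atf4 (32.0%), Trib3 (27.4%) and Sesn2 (20.8%) were below that median. Replicate 1 also held the most Myc and the highest macrophage, lymphocyte, endothelial and stromal marker sums, while the neutrophil sum was highest in replicate 3. Whether those cells or the remaining Myc have a part in the Ddit3, Atf3 and Ddit4 levels of replicate 1 was not tested.

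Upstream of ATF4, the subunits of eIF2 and of its exchange factor eIF2B fell. Of 18 tested genes of the eIF2 phosphorylation arm (lists were drawn up from textbook knowledge), 9 fell (50% of the list, against 22.8% of all genes) and 3 rose (16.7%, against 29.9%), with a median log2 fold change of -0.62. The 9 were 3 subunits of eIF2 (Eif2s1, Eif2s2 and Eif2s3x), the eIF2B subunits Eif2b1 to Eif2b5 and Gcn1l1, a coactivator of the amino acid sensing kinase. The smallest adjusted p-values were those of Eif2b3 (69.3 ± 3.22 to 13.7 ± 0.933 CPM, log2 fold change -2.34), Eif2b1 (-2.06) and Eif2b5 (-1.54). Those that rose were Eif2ak3, the kinase PERK that senses unfolded protein (21.6 ± 1.496 to 36.5 ± 8.33 CPM, 0.75, SE 0.24, edgeR adjusted p = 0.034), Ppp1r15a, the GADD34 subunit that dephosphorylates eIF2 (13.4 ± 3.67 to 24.9 ± 3.61 CPM, 0.89), and Dnajc3, an inhibitor of PERK (102 ± 27.3 to 234 ± 73.3 CPM, 1.19). The share of higher genes was below that of all genes, so the 3 rises are no result about the list. Eif2ak3 was at -0.03 with library size only, and 0 genes of the list rose with that scaling. Ppp1r15a was also lost with DESeq2 size factors (edgeR adjusted p = 0.0503) and Dnajc3 with the replicate block (edgeR adjusted p = 0.0653). The other eIF2 kinase genes, Eif2ak1 (0.26), Eif2ak2 (0.43) and Eif2ak4 (-0.54), were not called. Of the list, 0 genes rose without MYC-On replicate 3, 1 rose without MYC-On replicate 1 or 2 and 1 without MYC-Off replicate 2 or 3.

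Amino acid supply genes that ATF4 can induce were called lower more often than higher, as Asns was. Of 17 tested genes of amino acid synthesis and uptake, 8 fell (47.1%, against 22.8% of all genes) and 1 rose (5.88%, against 29.9%). The median was -1.40. Phgdh, the first enzyme of serine synthesis, fell from 158 ± 15.1 to 9.87 ± 6.05 CPM (-3.99, SE 0.45, edgeR adjusted p = 0.00101). The cationic amino acid transporter Slc7a1 fell from 171 ± 52.1 to 12.3 ± 9.95 CPM (-3.80), and the leucine transporter Slc7a5 by 3.56 on the log2 scale. The exception was Slc1a4, a neutral amino acid transporter, which rose from 1.75 ± 0.559 to 24.8 ± 2.14 CPM (3.82, SE 0.35). Without MYC-Off replicate 1, 3 genes of this list rose, and without MYC-Off replicate 3, 2 did.

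Of 13 genes of tRNA charging that ATF4 can induce, 9 fell (69.2%, against 22.8% of all genes) and 1 rose (7.69%, against 29.9%). The median was -1.05. Xpot, the tRNA exporter, fell from 333 ± 29.8 to 86.5 ± 26.6 CPM (-1.95, SE 0.30), and the synthetases Iars and Lars fell by 1.73 and 1.38 on the log2 scale. Aars, the alanine enzyme, rose from 66.2 ± 13.2 to 192 ± 90.3 CPM (1.54, SE 0.42, edgeR adjusted p = 0.0186), and was still at 1.44, 1.66 and 1.37 without MYC-On replicates 1, 2 and 3, where it no longer passed (adjusted p = 0.0776, 0.0548 and 0.0834). With library size only it was at 0.69 (adjusted p = 0.108).

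Other targets of ATF4 and CHOP divided, with 8 of 18 higher (44.4%, against 29.9% of all genes) and 2 lower (11.1%, against 22.8%). The median was 0.34, and it was -0.41 with library size only. Nupr1, a stress-induced chromatin protein, rose from 0.910 ± 0.265 to 17.0 ± 8.25 CPM (4.22, SE 0.55, edgeR adjusted p = 0.00147). The autophagy genes Sqstm1 (141 ± 11.6 to 431 ± 16.7 CPM, 1.61) and Map1lc3b (42.2 ± 5.49 to 136 ± 40.6 CPM, 1.69) rose as well. Eif4ebp1, which restrains cap-dependent translation, fell (-0.96), as did the cell death gene Bbc3 (-1.18). The number of lower genes in this list was 5 without MYC-Off replicate 1, 4 without MYC-Off replicate 3 and 0 without MYC-On replicate 2 or 3.

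In the IRE1 and ATF6 arms, which respond to unfolded protein in parallel with the PERK branch, 4 of 19 genes rose and 0 fell, with a median of 0.27 beside 0.18 for all genes. These 21.1% are below the 29.9% of all genes called higher, so the rises are no result about these arms. Against the 22.8% of all genes called lower, 0 fell here, a count that other settings raised. Those with the smallest adjusted p were the chaperone gene Dnajb9 (27.4 ± 8.13 to 159 ± 79.2 CPM, 2.54, SE 0.42, edgeR adjusted p = 0.00299), Edem1 (44.9 ± 3.44 to 185 ± 71.7 CPM, 2.05) and Sel1l (75.0 ± 16.5 to 161 ± 50.1 CPM), which serve the removal of misfolded protein. With library size only 2 rose and 3 fell, and the median was -0.47. The number that rose was 2 without MYC-On replicate 3, while 2 fell without MYC-Off replicate 1 and 1 without MYC-Off replicate 2.

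**Figure D4:**
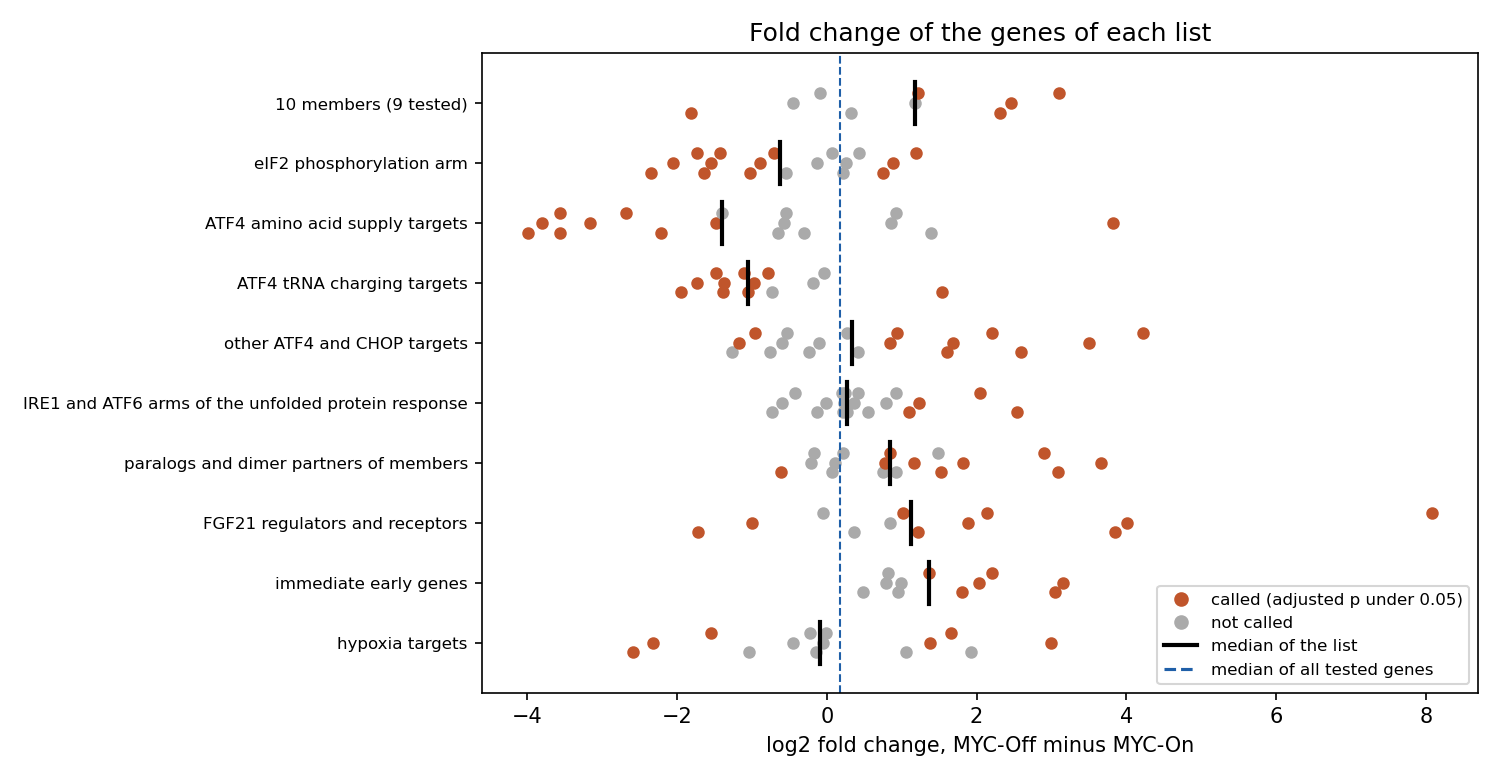
Log2 fold change (horizontal axis) of every tested gene in each list, coloured by whether it passed an adjusted p of 0.05, with the median of each list (bar) and of all tested genes (dashed line at 0.18). The 2 lists of amino acid supply and tRNA charging targets lie mostly below 0, with medians of -1.40 and -1.05.

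Among paralogs and dimer partners of the members, 8 of 17 tested genes rose (47.1%, against 29.9% of all genes) and 1 fell (5.88%, against 22.8%). The median was 0.85. Jdp2, a relative of Atf3, rose from 0.902 ± 0.214 to 7.72 ± 6.40 CPM (3.09), Cebpd, a bZIP factor of the family to which CHOP belongs, from 1.14 ± 0.574 to 14.4 ± 7.44 CPM (3.66), and Trib2, a paralog of Trib3, from 1.03 ± 0.444 to 7.75 ± 4.27 CPM (2.90). Atf2 fell by 0.61 on the log2 scale. Without MYC-On replicates 1, 2 and 3 in turn, 3, 4 and 3 rose and 0 fell, and 5 rose without MYC-Off replicate 2.

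Of 12 regulators and receptors of FGF21, 7 were higher (58.3%, against 29.9% of all genes) and 2 lower (16.7%, against 22.8%). The median was 1.12. The coactivator gene Ppargc1a rose from 0.496 ± 0.429 to 8.10 ± 4.998 CPM (4.01, SE 0.80), the protease gene Fap, whose product cleaves FGF21, from 0.0718 ± 0.0674 to 1.14 ± 0.276 CPM (3.84), and the receptor gene Fgfr2 from 0.279 ± 0.206 to 76.0 ± 42.0 CPM (8.09, SE 0.82, edgeR adjusted p = 0.000886). In MYC-On, Ppargc1a had 22, 4 and 7 reads, Fap 3, 2 and 0, and Fgfr2 9, 1 and 8. These genes passed the low-count filter through their MYC-Off reads. As for Fgf21, their calls are therefore no support for a rise, and the share of higher genes includes them. Klb, the co-receptor that FGF21 needs, fell from 102, 101 and 81.8 CPM to 17.5, 32.7 and 36.3 CPM (-1.72, SE 0.31), and Fgfr3 fell by 1.00. Without MYC-On replicates 1, 2 and 3 in turn, 3, 3 and 4 genes were higher and 1 was lower each time. Without MYC-Off replicate 2, 4 were higher, with a median of 0.64, and 1 was lower without MYC-Off replicate 1 or 3.

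Lists for other inputs to Atf3 and Ddit4 were read beside them. Of 11 immediate early genes 6 rose (54.5%, against 29.9% of all genes) and 0 fell (against 22.8%), with a median of 1.36. The smallest adjusted p was that of Egr1 (9.52 ± 1.28 to 79.0 ± 32.8 CPM, 3.05), followed by Zfp36 (2.21) and Btg2 (1.80). Library medians of this list relative to the MYC-On mean were 1.68, 0.62 and 1.68 in MYC-Off replicates 1, 2 and 3. The median was thus as high in replicate 3 as in replicate 1. Single genes differed: Fos (7.09, 3.67 and 3.76 CPM), Fosb (2.42, 0.842 and 0.845 CPM), Nr4a1 (10.7, 2.83 and 2.00 CPM) and Klf6 (138.0, 53.0 and 75.2 CPM), none of them called and chosen here after their values were seen, were highest in replicate 1, as Atf3 was. The other genes of the list, among them all the called ones, were highest in replicate 3, Junb by a narrow margin. Any part of immediate early inputs in the level of Atf3 was not tested. Of 14 hypoxia targets 3 rose and 3 fell (median -0.09). At 21.4% each way, this is below the 29.9% of all genes called higher and the 22.8% called lower and is no result about the list. The called genes were Adm at 2.99, Pfkfb4 at 1.66, Vegfa at 1.37, Hk2 at -2.59, Ankrd37 at -2.32 and Egln3 at -1.55. Without any one MYC-On replicate 1 hypoxia target rose. The hypoxia list's library medians were -0.31, -0.11 and 0.11 in MYC-Off replicates 1, 2 and 3. That median covers genes going both ways, and Pfkfb3 (41.3, 26.5 and 10.6 CPM), Pfkfb4 (11.98, 3.98 and 4.22 CPM), Car9 (2.25, 0.459 and 0.999 CPM) and P4ha1 (48.7, 30.1 and 19.6 CPM), picked after their values were seen, were highest in replicate 1, as Ddit4 was. Hk2 was highest in replicate 1 as well, and Adm and Pdk1 in replicate 2. The rest of the list (Vegfa, Slc2a1, Egln1, Egln3, Bnip3, Ankrd37 and Ndrg1) was highest in replicate 3. Any part of hypoxia in the level of Ddit4 was not tested. Vegfa was called although its groups overlapped.

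The profiles most like that of Atf4 over the 6 libraries, by Pearson correlation of log2 CPM among 9239 named genes whose mean reached 10 CPM, were those of Fam104a (0.992), Jund (0.991), Cog8 (0.989), Tnfrsf12a (0.989) and Atp6v0e2 (0.981). For Trib3, among 9240 genes, they were Il17ra (0.992), Tfe3 (0.992), Lrp10 (0.991), Cxcl9 (0.990) and Arf3 (0.989). With 6 libraries in 2 groups and so many candidates, values this high are a description and nothing more.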

How the data were processed

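RNA from flash frozen liver tumours of 3 MYC-On and 3 MYC-Off samples was sequenced, per the labels. The deposited values are whole-number read counts per gene symbol, not normalized. The submitters' processing notes name mm10 and, with no versions, the tools Trimmomatic, STAR, Picard, featureCounts and DESeq2. Gene annotation and strand setting: not given in the sources used here.

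Counts were tested with edgeR 4.0.16 in R 4.3.3 (filterByExpr with a minimum count of 10 and total of 15, TMM scaling, robust quasi-likelihood test, Benjamini-Hochberg adjustment over 14130 genes, threshold 0.05) and the procedure was tested on simulated data. With 50 genes changed at each size, it recovered 0% at 2-fold, 42% at 4-fold, 86% at 8-fold and 90% at 16-fold, with 2 false calls. Far fewer genes changed in the simulation than here, so these shares do not carry over exactly. A gene that was not called is not thereby shown to be unchanged. Standard errors and 95% intervals come from the fold change and its F statistic. Rows with a repeated symbol or one turned into a date (26) were kept by row number. Exon lengths, coordinates and overlaps are from GENCODE mouse release M21 (mm10); 50-base words of the members' transcripts were compared with those of other genes, and only Atf5 (1.81%) and Ddit3 (1.11%) shared any. Replicates of a group differed by more than counting error (chi-square over its degrees of freedom at least 32.4).

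The members and lists were chosen with earlier results of these data known. Named in each list are all called genes where 3 or fewer passed, otherwise the 3 with the smallest adjusted p in each direction; the 5 profiles most like Atf4 and Trib3 are also named. Mars was named for its overlap, and the markers of 8 cell types were read as sums. Other settings tried were scaling by DESeq2 size factors or by library size only, testing without a low-count filter or with 1 CPM required in 3 libraries, the tools DESeq2 1.42.0 and limma-voom (limma 3.58.1), edgeR without robust estimation, with the replicate number as a block, with a threshold of 0.01 or with glmTreat against 2-fold, and dropping every library in turn. Figures were drawn with matplotlib 3.10.9.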

Additional observations from a re-analysis of the deposited data

How the results depend on the processing

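Of the 10 genes, Atf5, Ddit3 and Asns kept their calls in all 16 alternatives. With library size only, 2527 of all genes were higher and 5300 lower (32.3% of calls higher, against 56.7%), 2 members rose and 2 fell, and Eif2ak3 reversed to -0.0261. In the lists that scaling gave 0 higher for the eIF2 arm and tRNA charging, 5 lower for other targets, 2 higher and 3 lower for IRE1 and ATF6, 3 higher and 2 lower for paralogs, 4 higher for FGF21 regulators, and 1 higher and 6 lower for hypoxia targets. At an adjusted p of 0.01, 2368 genes were higher and 1889 lower, with 2 members higher, 0 higher in the eIF2 arm, 0 higher and 5 lower for tRNA charging, 0 lower for other targets, 2 higher for IRE1 and ATF6, 3 higher and 0 lower for paralogs, 3 higher and 1 lower for FGF21 regulators and 1 higher for hypoxia. glmTreat against 2-fold left 2621 higher and 1428 lower genes and 2 members higher; in the lists it left 0 higher and 5 lower (eIF2 arm), 0 and 2 (tRNA charging), 6 and 0 (other targets), 2 and 0 (IRE1 and ATF6), 3 and 0 (paralogs), 3 and 1 (FGF21 regulators) and 1 and 2 (hypoxia), against 1 and 7 (amino acid supply) and 5 and 0 (immediate early), which moved little. No filter gave 1 higher in the eIF2 arm, 2 higher for amino acid supply and 0 lower for paralogs; the 1 CPM filter gave 1 lower FGF21 regulator. DESeq2 gave 2 higher for amino acid supply, 5 lower for other targets and 2 lower for IRE1 and ATF6, and DESeq2 size factors gave 5 and 1 lower for the last 2 lists. The causes were not tested.

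Replicate numbers did not pair the samples (correlations of -0.262, -0.168 and 0.04 between same-numbered samples, the highest of all pairs being 0.321 between MYC-On 1 and MYC-Off 2). With the replicate block 3152 genes were higher and 2611 lower, 2 members rose (Trib3 at 1.23, edgeR adjusted p = 0.111, and Chac1 at 2.20, adjusted p = 0.0685, were lost), and the lists had 0 higher in the eIF2 arm, 5 higher and 0 lower paralogs, 4 higher FGF21 regulators and 1 higher hypoxia target.

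Leaving out 1 library at a time gave 2776 to 4317 higher and 2337 to 3786 lower genes, 2 to 5 members higher and 1 to 2 lower, and -6.08 to -4.26 for Myc. Fgf21 is among the 5 members higher without MYC-Off replicate 2 and among the 3 without MYC-On replicate 1 or 3. In those settings 10 members were tested, not 9. Since Fgf21 entered only through its MYC-Off reads, its calls add no support to these counts. In the lists, higher and lower counts ran from 0 to 2 and 8 to 10 (eIF2 arm), 1 to 3 and 7 to 10 (amino acid supply), 0 to 1 and 6 to 10 (tRNA charging), 6 to 8 and 0 to 5 (other targets), 2 to 5 and 0 to 2 (IRE1 and ATF6), 3 to 7 and 0 to 1 (paralogs), 3 to 8 and 1 to 2 (FGF21 regulators), 5 to 8 and 0 (immediate early) and 1 to 3 and 3 to 4 (hypoxia). Depth limits Chac1 and Fgf21, with 8 to 78 and 0 to 92 reads a library.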
